A study of Homo sapiens with 4 samples.

Results

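The genes described here are 10 members of the interleukin-1 (IL-1) and interleukin-6 (IL-6) cytokine systems, chosen by gene symbol among 19381 genes in the deposited tables. They are 5 cytokines (IL1A, IL1B, IL6, IL11 and LIF), 4 receptor chains (IL1R1, IL6R, IL6ST and LIFR) and the feedback inhibitor SOCS3. All 10 had a row in the count, TPM and transformed tables. RNA was sequenced from SK-LMS-1, an established human cell line labelled as uterine leiomyosarcoma, in 4 libraries. Untreated cells gave 2 libraries, and cells given 50 µM 2-D08 for 48 h gave the other 2. 2-D08 is a flavone that blocks transfer of the protein modifier SUMO to its targets. The labels name no vehicle for the untreated cells, and all groups are the same single line. No label states separate cultures within a group. The p-values thus reflect only how far these libraries differ, and that spread may be technical.

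IL-1α and IL-1β bind the IL-1 receptor, which signals through MYD88 and IRAK kinases to NF-kappa-B and AP-1. IL-6, IL-11 and LIF bind receptors that share the signalling chain gp130, the product of IL6ST, and gp130 signals through JAK kinases and STAT3. STAT3 in turn activates SOCS3, whose product binds gp130 and JAKs and dampens the signal. IL-1 is a classical inducer of IL6, IL11 and LIF in mesenchymal cells.

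Library totals ran from 14796702 to 31300635 counts. In untreated replicate 1 and treated replicate 2, the libraries with the higher totals, 89.0% and 88.8% of counts above 0 were even numbers, against 48.4% and 47.9% in the other libraries. Among the 10 genes, 10 counts in untreated replicate 1 and 9 in treated replicate 2 were even. Counts there may not stand for separate reads, which was not tested, and every count below is given as deposited. Of the smooth muscle markers DES had 0 counts in all libraries, MYOCD had 0 in the untreated ones and MYH11 had 10 to 24 counts. ACTA2 was low, at 3.06 to 6.64 CPM (library-size-scaled counts after TMM normalisation), and CALD1 and SMTN were abundant. The summed level of 8 leukocyte markers was 62.6 and 67.0 CPM in untreated and 98.9 and 99.8 CPM in treated libraries. CD68 made up most of that sum, PTPRC, the pan-leukocyte marker, had 4 to 16 counts and TYROBP had 0 in all libraries. In bulk RNA a change in the number of cells of a type and in the RNA per cell cannot be told apart.

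The sequence before the RefSeq start of 3 of the genes is shown because IL6 had the largest fitted fold change of the 10, IL1R1 was the receptor gene with the largest, and IL11 did not pass the test. The windows come from RefSeq (GRCh38.p14), which matched 9 of the 10 symbols, all but LIF. They cover the 250 bases before the RefSeq start, without the last 53 bases for IL6 and 41 for IL1R1, which lie in GENCODE 29 exons. Each is written 5′ to 3′ on the gene's strand, and capitals mark matches to the letters searched. The IL6 window is chr7:22726950-22727146 on the plus strand, the IL1R1 window chr2:102104354-102104562 on the plus strand, and the IL11 window chr19:55370464-55370713 on the minus strand. By GENCODE 29 the IL6 and IL1R1 genes begin further upstream, so their RefSeq starts lie 1316 and 40060 bases inside the gene and both windows are within it, whereas for IL11 the starts coincide.
IL6: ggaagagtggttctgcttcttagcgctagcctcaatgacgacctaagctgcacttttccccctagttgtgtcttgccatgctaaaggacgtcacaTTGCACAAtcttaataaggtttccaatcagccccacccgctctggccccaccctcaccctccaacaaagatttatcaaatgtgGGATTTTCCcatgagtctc
IL1R1: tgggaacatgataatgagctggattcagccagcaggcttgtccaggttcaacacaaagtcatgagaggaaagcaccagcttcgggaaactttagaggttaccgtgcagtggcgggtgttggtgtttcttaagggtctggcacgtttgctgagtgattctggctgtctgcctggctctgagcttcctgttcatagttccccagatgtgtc
IL11: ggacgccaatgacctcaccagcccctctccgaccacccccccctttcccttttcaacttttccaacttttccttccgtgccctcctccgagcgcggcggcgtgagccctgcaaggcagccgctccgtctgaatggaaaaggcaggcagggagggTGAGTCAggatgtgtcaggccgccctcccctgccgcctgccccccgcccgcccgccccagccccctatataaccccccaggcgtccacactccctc

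The letters of 6 motifs were searched on both strands of the whole windows. GGNNTTTCC, an NF-kappa-B type site, was present in 5.48% of 34943 RefSeq windows of the same length and in 1 of the 9 matched genes, IL6, at 72 to 64 bases before the start. TTGCNNAA, a C/EBP type site, was in 9.06% of windows and in IL1B and IL6, where it lies 155 to 148 bases before the start. TGANTCA, an AP-1 type site, was in 6.59% of windows and in IL1A and IL11, in the latter 96 to 90 bases before the start. TTCNNNGAA, a STAT type site, was in 6.56% and in IL1B and LIFR, and TATAAA was in 10.8% and in IL1A. TGACGTCA, the CRE palindrome, was in 1.63% of windows and in 0 of the 9 genes. No capitals appear in the IL1R1 window, and IL6R, IL6ST and SOCS3 likewise held none of these letters in their windows. Of the windows not printed, that of LIFR belongs to a RefSeq start 12949 bases inside the GENCODE gene and that of SOCS3 to a start 848 bases before it. Matches did not overlap each other in these genes, and a match is a run of letters only.

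Of the 10 genes, 5 were called higher in treated cells and 0 lower by edgeR's quasi-likelihood test (Benjamini-Hochberg adjusted p under 0.05 over 12906 tested genes). Among all tested genes 33.9% were called, 17.1% higher and 16.9% lower. Among the called genes IL6, IL1A and IL1R1 rose most and LIF and IL6ST by smaller amounts. IL1B, IL11, IL6R, LIFR and SOCS3 were not called, although the fitted log2 difference of IL1B (1.18) exceeded that of IL1R1 (1.00). The median log2 fold change was 0.43 over the 10 genes and -0.00 over all tested genes. IL1A, IL1B and IL6 exceeded the low-count filter in both treated libraries but not in both untreated ones, so their passing the filter is not independent of being higher after treatment. Among the other 7 genes, 3 were called higher and 0 lower. Treated libraries lay above untreated ones without overlap in 8 of the 10 genes on the CPM scale, where 33.8% of tested genes did so, and below in 2, where 33.7% did so. On the TPM scale treated libraries lay above without overlap in 6 of the 10 genes and below in 1, against 27.5% and 33.8% of tested genes. The groups overlapped in IL11, LIF and LIFR. Deposited TPM values summed to 761770 and 745964 in the untreated libraries and to 741705 and 716934 in the treated ones. They were not rescaled, so TPM comparisons are shifted downward for treated cells, most for treated replicate 2.

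**Figure D1:**
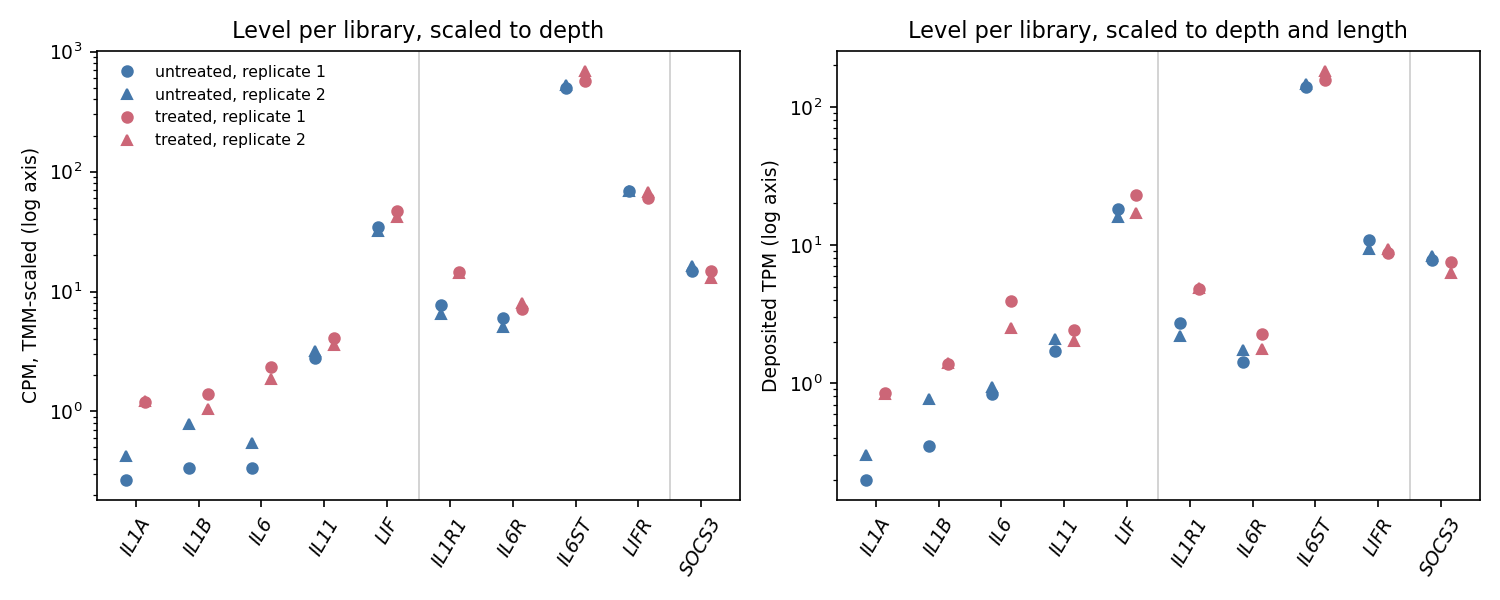
Level of each gene in each of the 4 libraries, as TMM-scaled CPM (left) and as deposited TPM (right), both on log axes, with colour for group and marker shape for replicate. Cytokines, receptor chains and SOCS3 are separated by vertical lines, and IL6ST stands above all others while IL1A, IL1B and IL6 are lowest in untreated cells.

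Expression per transcript length, as deposited TPM, placed IL6ST first in all libraries, at 140.01 and 146.71 TPM untreated and 156.84 and 181.64 TPM treated. LIF followed, then LIFR, SOCS3 and IL1R1, in this order in each group and without overlap between neighbours in the order. Below them the untreated order was IL11, IL6R, IL6, IL1B and IL1A, and the ranges of IL11 and IL6R overlapped. In treated cells IL6 stood above IL11 and IL6R, at 2.49 and 3.92 TPM against 2.02 and 2.44 TPM for IL11. The ligand-binding chain IL6R was therefore listed at 1.43 to 2.25 TPM over the 4 libraries, far under its partner IL6ST.

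IL6 encodes a secreted cytokine that drives acute-phase and inflammatory responses (chromosome 7, 22725884 to 22732002, GRCh38, plus strand). Its counts were 10 and 9 in untreated replicates 1 and 2 and 35 and 58 in treated replicates 1 and 2. On the CPM scale these were 0.337 and 0.545 against 2.33 and 1.88, with both treated libraries above both untreated ones. The group means were 0.441 ± 0.147 and 2.10 ± 0.315 CPM (SD, n = 2 per group). The fitted change was 4.90-fold (95% interval 2.51 to 9.56), or 2.29 ± 0.45 on the log2 scale (SE; adjusted p = 0.00152 by edgeR). The deposited TPM values were 0.83 and 0.94 against 3.92 and 2.49, also without overlap, and the ratio of group means was 3.62 in TPM against 4.77 in CPM. On log2(TPM + 1) and log2(TPM + 0.1), scales that understate the change of low genes, the IL6 difference was 1.14 and 1.71 (limma adjusted p of 0.0265 and 0.0258). CPM per TPM for IL6 ranged from 0.406 in untreated replicate 1 to 0.755 in treated replicate 2. This 1.86-fold range was the widest of the 10 genes, so the size of the IL6 change depends on the scale used. IL6 is overlapped on the opposite strand by STEAP1B and by the antisense gene AC073072.1, and reads of opposite strands cannot be told apart where strand was not used in counting.

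IL1A encodes IL-1α, a cytokine held inside cells and released on damage (chromosome 2, 112773915 to 112784590, minus strand). It had 8 and 7 counts in untreated replicates 1 and 2 and 18 and 38 in treated replicates 1 and 2, or 0.270 and 0.424 against 1.20 and 1.23 CPM. Treated libraries were close to each other and above both untreated ones. The log2 fold change was 1.86 ± 0.51 (SE), 3.64-fold with a 95% interval of 1.70 to 7.82 (edgeR adjusted p = 0.0127). DESeq2 did not call it (adjusted p = 0.0659), nor did limma on either TPM scale (0.0512 and 0.053). Leaving out untreated replicate 1 (0.191) or treated replicate 2 (0.0822) ended the call as well.

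IL1B, the neighbouring gene for the secreted cytokine IL-1β (chromosome 2, 112829751 to 112836903, minus strand), had 10 and 13 counts untreated and 21 and 32 treated. Its CPM values were 0.337 and 0.787 against 1.40 and 1.04, so the groups did not overlap but the untreated pair was widely spread. IL1B did not pass (edgeR adjusted p = 0.0941), with a 2.27-fold fitted difference and a 95% interval of 1.05 to 4.92. The fitted log2 difference of 1.18 became 0.59 without untreated replicate 1 and 1.80 without untreated replicate 2, so it rests on which untreated library is used, and IL1B was called in neither case (edgeR adjusted p of 0.631 and 0.0632).

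LIF, leukaemia inhibitory factor, was the most abundant cytokine of the 5 by TPM (chromosome 22, 30240447 to 30246851, minus strand). Its counts were 1030 and 530 untreated and 707 and 1302 treated, which were 34.7 and 32.1 against 47.0 and 42.2 CPM. LIF rose 1.33-fold (95% interval 1.12 to 1.57, log2 fold change 0.41 ± 0.11 SE, edgeR adjusted p = 0.0132). In deposited TPM the groups overlapped, at 18.3 and 15.86 untreated and 22.91 and 16.98 treated, and neither limma fit on TPM called LIF (adjusted p of 0.474 and 0.471). Leaving out untreated replicate 1 or untreated replicate 2 ended it as well (0.0835 and 0.179). LIF is overlapped on the opposite strand by LIF-AS1 and AC004264.1.

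IL11 encodes a gp130 cytokine studied for its role in fibrosis (chromosome 19, 55364389 to 55370463, minus strand). Counts of 82 and 53 untreated and 62 and 110 treated gave 2.76 and 3.21 against 4.12 and 3.57 CPM. The fitted difference was 1.29-fold with a 95% interval of 0.882 to 1.87 (edgeR adjusted p = 0.289), and in TPM the groups overlapped. IL11 was not called in any of the 15 alternatives that tested it.

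IL1R1, the signalling receptor for IL-1α and IL-1β, rose in treated cells (chromosome 2, 102064544 to 102179874, plus strand). Counts were 230 and 108 untreated and 218 and 440 treated, or 7.75 and 6.54 against 14.5 and 14.3 CPM. The treated libraries nearly coincided, and both lay well above the untreated ones on the CPM and the TPM scale (2.74 and 2.2 against 4.78 and 4.89 TPM). The change was 1.99-fold (95% interval 1.54 to 2.58, log2 fold change 1.00 ± 0.17 SE, edgeR adjusted p = 0.000642). IL1R1 passed the threshold in all 16 alternatives, and IL6 in all 15 that tested it. IL1R1-AS1 overlaps it on the opposite strand.

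IL6ST encodes gp130, the chain shared by the IL-6 family (chromosome 5, 55935095 to 55994993, minus strand). It had 14758 and 8776 counts untreated and 8560 and 21241 treated, which scaled to 498 and 531 against 569 and 689 CPM. The treated libraries differed from each other by more than the lower of them did from the untreated ones. IL6ST rose 1.22-fold (95% interval 1.05 to 1.42, edgeR adjusted p = 0.0401), close to the threshold. Leaving out a library ended the call for untreated replicate 1, untreated replicate 2 and treated replicate 2 (adjusted p of 0.386, 0.169 and 0.152 in turn). Neither limma on TPM (0.187 and 0.184) nor limma on the transformed table (0.0533) called it. Without treated replicate 2 the log2 fold change was 0.14, against 0.29 with all libraries. IL6ST has a processed pseudogene, IL6STP1, which is on chromosome 17, and its share of reads could not be separated.

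IL6R, the ligand-binding chain for IL-6 (chromosome 1, 154405193 to 154469450, plus strand), had 178 and 83 counts untreated and 108 and 246 treated. CPM values of 6.0 and 5.02 against 7.18 and 7.97 did not overlap. IL6R did not pass (1.37-fold, 95% interval 1.02 to 1.84, edgeR adjusted p = 0.0939), although it did with the replicate number as a block (adjusted p = 0.0388) and without treated replicate 1 (0.0386). CPM per TPM for IL6R was 4.20 and 4.51 in the libraries with mostly even counts and 2.89 and 3.19 in the others. IL6R-AS1 and the pseudogene PSMD8P1 overlap it on the opposite strand, and a processed pseudogene IL6RP1 lies elsewhere.

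LIFR, which pairs with gp130 to bind LIF (chromosome 5, 38474963 to 38608354, minus strand), had 69.0 and 68.9 CPM untreated and 60.2 and 68.2 CPM treated. Treated replicate 2 was within 1 CPM of the untreated libraries. The fitted change was 0.934-fold with a 95% interval of 0.804 to 1.08 (edgeR adjusted p = 0.476), and LIFR-AS1 overlaps the gene. SOCS3, the feedback inhibitor (chromosome 17, 78356778 to 78360077, minus strand), had 14.8 and 16.4 CPM untreated and 14.8 and 13.0 CPM treated. Untreated replicate 1 and treated replicate 1 were nearly equal. The fitted change was 0.887-fold, with a 95% interval of 0.704 to 1.12 (edgeR adjusted p = 0.416). Neither LIFR nor SOCS3 was called in any of 16 alternatives.

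**Figure D2:**
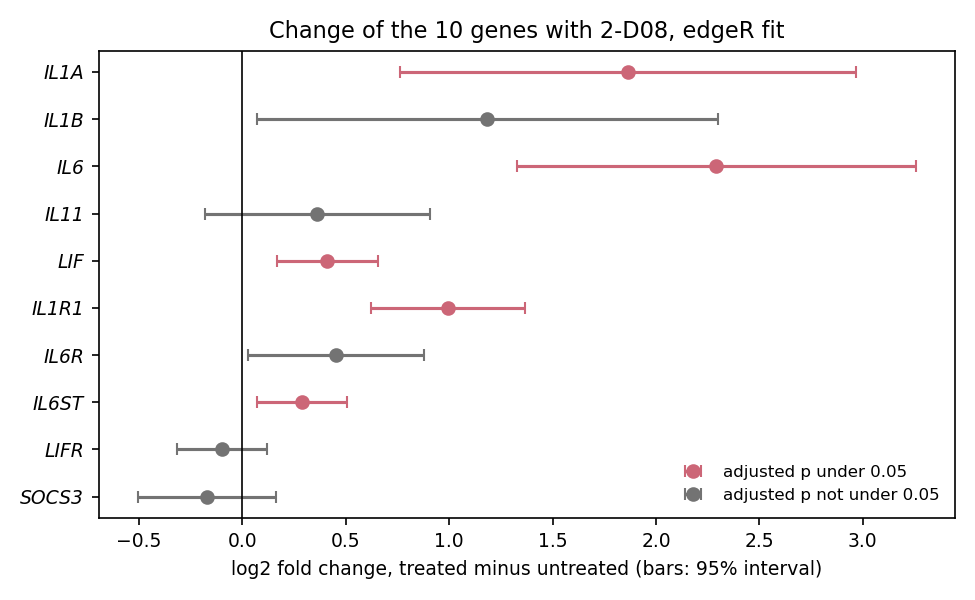
Fitted log2 fold change of each gene, treated minus untreated, with its 95% interval from the edgeR fit; colour marks an adjusted p under 0.05. IL6 (2.29) and IL1A (1.86) have the largest values and wide intervals, and the intervals of IL11, LIFR and SOCS3 cross 0.

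Summed levels of leukocyte markers were higher in the treated libraries, as given above, and their part in the cytokine values was not tested. LCP1 was called higher, with means of 1.00 and 5.18 CPM, and so was CD68, with 62.9 and 93.0 CPM (n = 2 per group; edgeR adjusted p of 7.26e-05 and 0.000503). The other 6 leukocyte markers were each under 1 CPM in the mean of either group. Of these only CD14 was tested, and it went the other way without being called (edgeR adjusted p = 0.452). It had 0.607 and 0.484 CPM untreated and 0.199 and 0.454 CPM treated. Markers of other lists moved too. Among all tested genes 17.1% were called higher and 16.9% lower. Of 8 smooth muscle markers, TAGLN (0.555-fold), CNN1 (0.491-fold) and CALD1 (0.733-fold) were called lower and SMTN higher (log2 fold change 0.58). DES and MYOCD were not tested. The summed level of the 8 was 799.97 and 826 CPM untreated and 658 and 699 CPM treated. Of 5 epithelial markers KRT19 (0.357-fold) and KRT8 (0.723-fold) were called lower, and CDH1 was not tested. The 5 summed to 261 and 232 CPM against 237 and 203 CPM. Of 4 endothelial markers PECAM1 was called higher (3.71-fold), on 14 and 2 counts untreated and 18 and 40 treated. It exceeded the low-count filter in both treated libraries but not in untreated replicate 2. Its passing the filter is thus not independent of being higher after treatment. CDH5 went the other way, with 22 and 24 counts untreated and 5 and 18 treated, and was not called (edgeR adjusted p = 0.131). KDR had 0 and 0 counts untreated and 5 and 6 treated, VWF had 2 or fewer in every library, and neither was tested. The 4 genes summed to 1.28 and 1.57 CPM against 1.93 and 2.07 CPM. The part of these other lists in the cytokine values was not tested either.

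**Figure D3:**
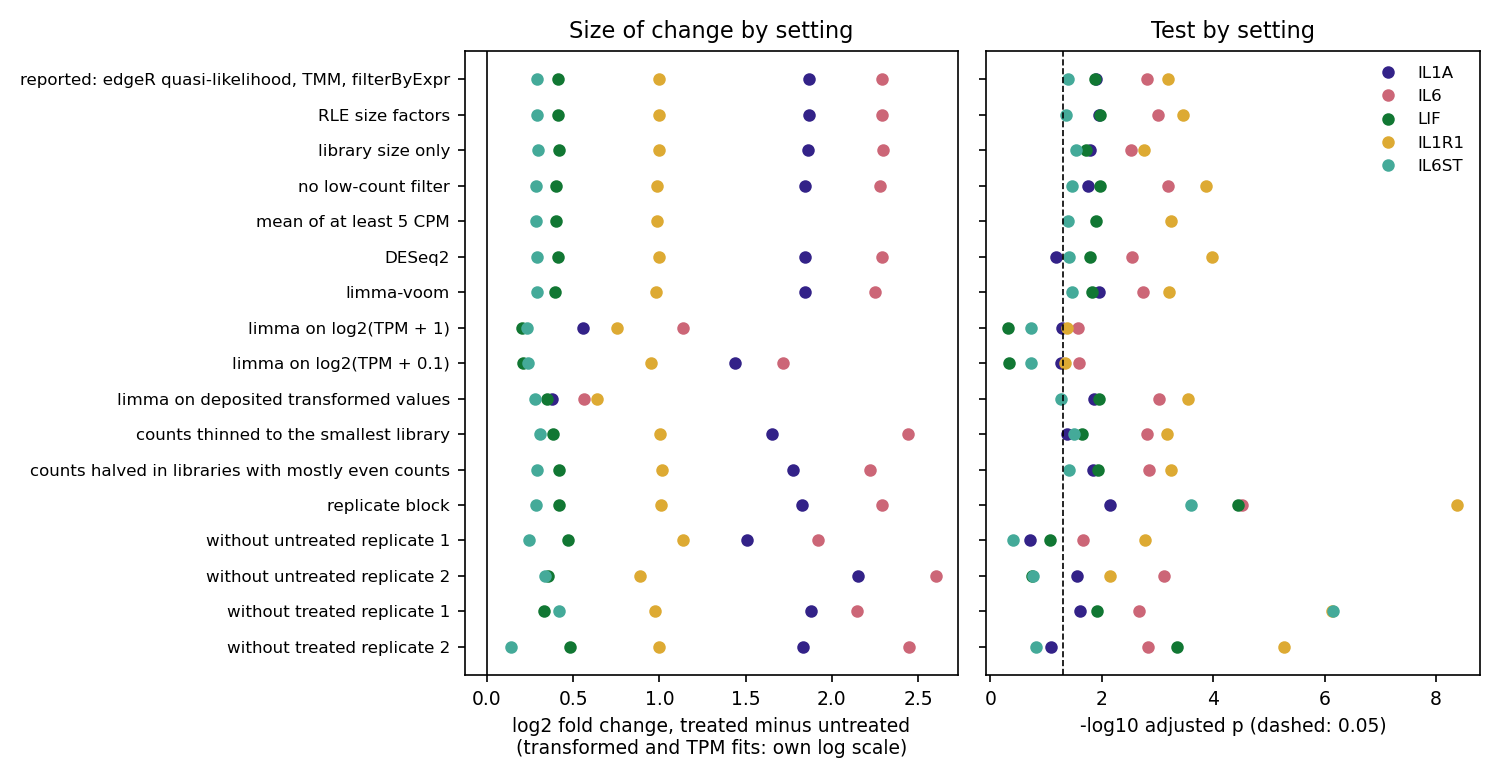
Log2 fold change (left) and -log10 adjusted p (right, dashed line at 0.05) of the 5 genes called higher, in the reported fit and each alternative. IL6 and IL1R1 stay right of the dashed line wherever they were tested, whereas IL1A, LIF and IL6ST fall left of it in 5, 4 and 6 settings.

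Cytokine genes were also set beside the tested genes with the most similar pattern, among 12068 others with a mean of at least 1 CPM, by the root mean square distance of centred log2 CPM over the 4 libraries. For IL6 the nearest were the chemokine genes CXCL3 (distance 0.133) and CCL2 (0.141) and SERPIND1, which encodes heparin cofactor II (0.142). CXCL3 had 1.15 and 2.18 CPM untreated and 7.11 and 5.51 CPM treated, and its reads may be split with near copies. CCL2, a monocyte chemokine, had 1.42 and 2.36 CPM untreated and 7.04 and 6.61 CPM treated. No gene lay within 0.1 of IL6. For LIF, 731 genes did, the nearest being CCDC150, NECAP1 and CCN2. For IL11, 460 did, the nearest being ZNF549, CCDC9 and CEP72. With 2 libraries per group the distance depends largely on the size of the change, so these counts do not set IL6 apart. Shared regulation of the neighbouring genes was not tested. IL6 passed the bar of 1 CPM only through its treated libraries, with group means of 0.441 and 2.10 CPM. IL1A and IL1B had means under 1 CPM.

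Beyond the 10 genes, 89 further genes of the pathways were in the table, in 9 lists, and 67 of them were tested. Of these, 10 were called higher and 10 lower, near the shares over all tested genes (17.1% and 16.9%), with a median log2 fold change of 0.03. The list of JAK, STAT and shedding genes held only calls in the lower direction (4), with a median of -0.25. The other IL-6 family receptors also had only a lower call (1), with a median of -0.25. Only higher calls were in IL-1 signal transduction and processing (2) and in the other IL-6 family ligands (1). The lists were chosen with earlier results of these data known.

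Other ligands and antagonists of the IL-1 family were scarce. Only IL33, an alarmin, and IL18BP, a soluble inhibitor of IL-18, were tested of 10, and neither was called. IL1RN, the natural IL-1 receptor antagonist, had no count without treatment and counts of 1 and 4 with it. A count of 0 over the untreated libraries allows up to 0.065 CPM (3 counts over the group, counting error only). This bound takes deposited counts as separate reads, which may not hold for untreated replicate 1, so the true bound may be higher. Among 8 receptor genes 3 were tested and 0 called, and IL1RAP, the accessory chain that IL1R1 needs to signal, had means of 29.6 and 26.6 CPM (edgeR adjusted p = 0.395). The decoy receptor IL1R2 had 0 counts in 3 libraries and 2 in treated replicate 2.

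Of 13 genes of IL-1 signal transduction and processing, all tested, 2 were called higher and 0 lower. IRAK2, a kinase-like adaptor downstream of MYD88, went from 10.4 and 10.8 to 18.7 and 15.6 CPM (log2 fold change 0.69 ± 0.16 SE, edgeR adjusted p = 0.00504). MYD88, the receptor adaptor, rose by 0.34 on the log2 scale (edgeR adjusted p = 0.0318). IRAK1, IRAK4, TRAF6 and CASP1, the protease that matures IL-1β, were not called, with log2 differences from -0.06 (CASP1) to 0.18 (IRAK4). The IRAK2 call was lost on both TPM scales and without untreated replicate 1, and that of MYD88 in 5 of 16 alternatives.

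Of 8 other IL-6 family ligands 4 were tested, and CNTF, ciliary neurotrophic factor, was called higher at a low level (0.910 and 0.908 to 2.13 and 1.82 CPM, edgeR adjusted p = 0.0373). The read-through gene ZFP91-CNTF shares its exons, so its value is uncertain, and the call was lost in 7 of 15 alternatives. OSMR, the oncostatin M receptor chain that pairs with gp130, was the 1 of 4 tested receptors called, and it fell from 150 and 143 to 115 and 120 CPM (edgeR adjusted p = 0.0143). RICTOR overlaps OSMR on the opposite strand. IL11RA, the IL-11 receptor, had 30 and 11 counts untreated and 6 and 14 treated (edgeR adjusted p = 0.16).

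In the list of 10 JAK, STAT and shedding genes, all tested, 4 were called lower and 0 higher. Among all tested genes 16.9% were called lower and 17.1% higher. JAK1, the main kinase of gp130 signalling, went from 348 and 345 to 234 and 257 CPM (log2 fold change -0.49 ± 0.09 SE, edgeR adjusted p = 0.000923), and it kept its call in all 16 alternatives. STAT3 went from 131 and 124 to 102 and 91.9 CPM (-0.40 ± 0.09, edgeR adjusted p = 0.00505). STAT5A (-0.80) and STAT5B (-0.34), close paralogs whose reads may be shared, fell as well. JAK2, TYK2 and the receptor-shedding proteases ADAM10 and ADAM17 were not called. RAVER2 overlaps JAK1 on the opposite strand. The calls of STAT3, STAT5A and STAT5B were lost in 3, 4 and 6 of 16 alternatives.

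Among 14 inhibitors of receptor signalling 13 were tested, with 2 higher and 2 lower. SOCS2, an inhibitor best known from growth hormone signalling, fell from 57.4 and 57.1 to 39.2 and 34.8 CPM (edgeR adjusted p = 0.000566). SOCS4, a relative with a SOCS box, rose from 77.1 and 87.6 to 124 and 148 CPM (edgeR adjusted p = 0.000194). SOCS5 fell by 0.28 and the phosphatase gene PTPN1 rose by 0.38 on the log2 scale. SOCS1 and CISH, STAT-induced inhibitors, had 22 counts or fewer in every library and were not called.

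Of 11 transcription factors and targets tied to IL-6 and IL-1, 8 were tested, with 2 higher and 2 lower. CEBPD, a transcription factor induced by STAT3 in the acute-phase response, fell from 10.0 and 7.75 to 3.12 and 2.27 CPM, 3.42-fold lower (edgeR adjusted p = 9.1e-05). BCL3, an IκB-like cofactor, fell by 0.79, whereas JUNB, an AP-1 subunit, rose by 0.63 and BCL6, a repressor, by 0.41 on the log2 scale. The IL-6 target PIM1 and the IL-1 target NFKBIZ were not called (log2 differences of -0.15 and -0.01). HOOK2 overlaps JUNB on the opposite strand.

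All 10 RNA-binding factors that act on cytokine mRNA were tested, and 3 were higher and 1 lower. ZFP36L2 rose from 38.5 and 43.3 to 70.6 and 68.0 CPM and its relative ZFP36L1, both decay factors for AU-rich mRNA, fell from 389 and 424 to 275 and 303 CPM (edgeR adjusted p of 0.000117 and 0.00122). ELAVL1, which stabilises such mRNA, rose by 0.28 and RC3H2, a roquin, by 0.30. ZFP36 and ZC3H12A, which degrades IL6 mRNA, were not called (log2 differences of -0.11 and 0.10).

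Of the 20 pathway calls, those of JAK1, SOCS2, SOCS4, CEBPD and ZFP36L2 held in all 16 alternatives. Leaving out untreated replicate 1 ended the calls of MYD88, IRAK2, CNTF, OSMR, STAT3, STAT5A, STAT5B, SOCS5, PTPN1, BCL6, ELAVL1 and RC3H2 (edgeR adjusted p from 0.0658 to 0.425). Leaving out untreated replicate 2 ended those of MYD88, CNTF, OSMR, STAT5B, SOCS5, PTPN1, BCL3, BCL6, ZFP36L1, ELAVL1 and RC3H2 (0.0543 to 0.416). The calls of CNTF and MYD88 ended without treated replicate 1 (0.104 and 0.061), and those of CNTF and STAT5A without treated replicate 2 (0.0905 and 0.0828).

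**Figure D4:**
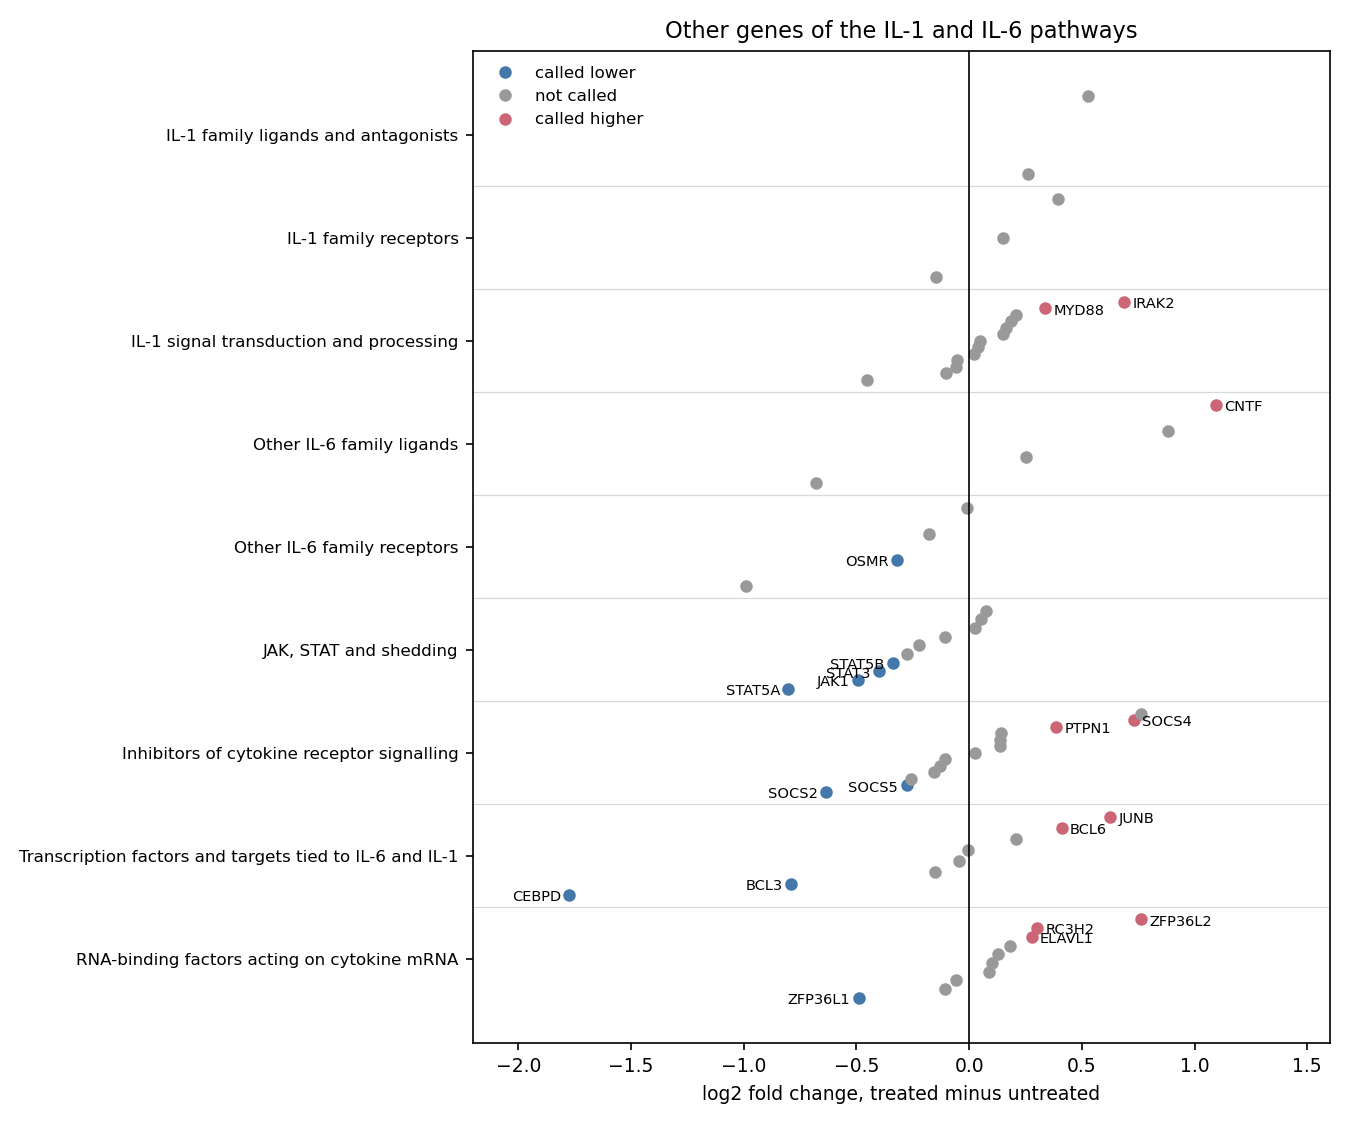
Log2 fold change, treated minus untreated, of each tested gene in the 9 pathway lists, 1 point per gene, coloured by its call; called genes are named. Points called higher and lower are 10 each. Called points of the JAK and STAT list and of the other IL-6 family receptors lie left of 0. Those of IL-1 signal transduction and of the other IL-6 family ligands lie right of it.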

How the data were processed

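RNA-seq counts, TPM and transformed values from 4 libraries of SK-LMS-1 cells were used. The authors deposited whole-number read counts per gene and TPM values rounded to 2 decimals. They also deposited a table named as normalised counts whose deposited values run from 6.35 to 18.3, read here as a log2 scale and used only as an alternative. The submitters' processing notes name build GRCh38 and the tools STAR 2.7.8a, cutadapt 3.4 and DESeq2. How reads were counted, with which annotation and strand setting, is not given in the sources. Ribosomal RNA was removed before library construction, per the labels' protocols.

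Counts were filtered with filterByExpr (minimum count 10, about 0.433 CPM in 2 libraries), scaled with TMM and tested with edgeR 4.0.16 (quasi-likelihood, robust, two-sided) in R 4.3.3 on all 12906 genes kept of 19381, with Benjamini-Hochberg adjustment. limma 3.58.1 and DESeq2 1.42.0 served as alternatives. Standard errors and intervals come from the F statistic and cover the fitted spread between libraries. Scripts were tested on simulated data. Positions are from GENCODE 29. Named genes are the 10 members, up to 4 called genes with the smallest p from each list, and the 3 genes nearest in pattern to each cytokine with a mean of at least 1 CPM; other genes were named as context after their values were seen. The members and lists were chosen with earlier results of these data known. Some genes of the pathway lists are not reported by name here.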

Additional observations from a re-analysis of the deposited data

How the results depend on the processing

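Alternatives were DESeq2, limma-voom, limma on the transformed values, on log2(TPM + 0.1) and on log2(TPM + 1), a filter at 5 CPM on average, no filter, RLE factors, unscaled library sizes, thinned counts, halved counts in the libraries with mostly even counts, a replicate block, and leaving out each library, where a lone library is assumed to vary like the other group. None of the 10 genes or the 20 pathway genes changed direction in any of them. The count of the 10 genes called higher was 3 with the 5 CPM filter, where IL1A, IL1B, IL6 and IL11 were not tested, and 2 on each TPM scale. It was 2 to 6 when a library was left out, 2 without untreated replicate 1, 3 without untreated replicate 2 and 3 without treated replicate 2; 0 were lower in every setting. Pathway genes called were 2 higher and 5 lower on each TPM scale, 3 to 13 higher and 5 to 13 lower when a library was left out, with 3 and 5 without untreated replicate 1 and 6 and 5 without untreated replicate 2. All tested genes called were 702 higher and 896 lower on log2(TPM + 1), 714 and 894 on log2(TPM + 0.1), 949 to 2931 higher and 917 to 3146 lower when a library was left out. The cause was not tested. Halved counts left all 5 calls in place (IL6 adjusted p = 0.00141, IL6ST 0.0384). No label says that equal replicate numbers mark a pair, and the departures of equal-numbered libraries from the mean of their group had a correlation of 0.16 across all tested genes and 0.40 across the 10502 that averaged 5 CPM or more. With the replicate block 6 of the 10 genes (IL6R added), 3138 of all tested genes higher and 3101 lower were called. The low counts of IL1A, IL1B and IL6 limit what they can show.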

Other observations

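Outside the tested genes, 2 pathway genes had too few counts for the filter and were called higher when no filter was applied. Without the filter 2186 genes of the whole table were called higher and 2259 lower. The 2 genes are named after their values were seen. Their untreated counts were at or near 0, and treated replicate 2, which held most of their reads, had mostly even counts. IL1RL1, the receptor for IL-33, had no count in either untreated library, and 5 and 18 counts in treated replicates 1 and 2 (edgeR adjusted p = 0.00922 without the filter). SAA2, an acute-phase gene with the near copy SAA1, had 2 and 0 counts untreated and 6 and 18 treated (edgeR adjusted p = 0.0333 without the filter).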
